A study of Mus musculus with 20 samples.

Results

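The genes of the retinoic acid receptors Rara, Rarb and Rarg, of their partner Rxra, and of Pml were examined for CpG methylation in sorted mouse promyelocytes. Rara and Pml are the mouse counterparts of the genes joined in the PML-RARa fusion of acute promyelocytic leukaemia. Retinoic acid receptors are nuclear receptors that bind DNA as heterodimers with a retinoid X receptor such as Rxra. They recruit corepressors without ligand and coactivators when retinoic acid is bound, and their response elements are direct repeats of a short half-site. Rara is the main receptor of the granulocyte lineage, Rarg is studied in haematopoietic stem cells, and Rarb is a classical direct target of retinoic acid. Pml is the scaffold protein of PML nuclear bodies.

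Members were taken by position, not by any measured value. They were the CpG cytosines of each strand within 5 mm9 intervals of 60 kb (Rara, chromosome 11), 190 kb (Rarb, chromosome 14), 40 kb (Rarg, chromosome 15), 105 kb (Rxra, chromosome 2) and 40 kb (Pml, chromosome 9). Cytosines with a coverage of at least 10 reads in at least 4 of the 5 libraries of every group were kept. This left 984 of the 1647 cytosines listed there in any library, out of 1730534 kept on chromosomes 1 to 19. Rara held 353 of them, Rxra 334, Rarg 188, Rarb 65 and Pml 44. Fixed windows of 1 kb with at least 3 kept cytosines were tested, 68 of 127276 in all: 23 at Rara, 22 at Rxra, 15 at Rarg and 4 each at Rarb and Pml. These windows contained 937 of the 984 cytosines, and 27 further windows with 1 or 2 kept cytosines were not tested. Exons, introns and UTRs were not assigned here, since the gene table in use is of another build (GRCm38.p6), and the intervals can include parts of neighbouring genes. In that table the nearest named neighbours are Cdc6 and Gm46294 for Rara, Top2b and Thrb for Rarb, Itgb7 and Mfsd5 for Rarg, Wdr5 and Col5a1 for Rxra, and Islr2 and Stoml1 for Pml.

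The method was enhanced reduced representation bisulfite sequencing, which reads CpG-rich restriction fragments and gives methylated cytosines as C and unmethylated ones as T. The 20 libraries formed 4 groups of 5: wild-type (WT) CD34+, WT CD34-, PML-RARa CD34+ and PML-RARa CD34- cells, all on the FVB/n background. The series describes CD34+ cells as early and CD34- cells as late promyelocytes, and PML-RARa as a transgene compared with control mice. The labels used here name neither the promoter of the transgene nor the animals behind each library, so p-values measure the spread between libraries, which may in part be technical. Only DNA was sequenced, and the sorted cell type could not be checked against expressed markers. Libraries are named by the number that opens their title. Each odd CD34+ number is followed by a CD34- number of the same genotype and # mark, but the labels do not say that such neighbours come from the same animals, and the libraries were not treated as pairs. The sum of coverage over cytosines was between 83631324 and 362881291 per library. In 5 libraries (WT CD34+ 1, PML-RARa CD34+ 5 and 11, PML-RARa CD34- 6 and 12) windows of intermediate methylation scattered around the group means with an SD of 9.28 to 13.5 percentage points, against 4.77 to 8.61 points in the other 15. The labels' flowcells, 4 in number, did not hold the groups evenly: the first had 2 WT CD34+, 2 WT CD34- and 3 PML-RARa CD34- libraries, the second 1 PML-RARa CD34+, the third 2 WT CD34+, 2 WT CD34- and 1 PML-RARa CD34+, and the fourth 1 WT CD34+, 1 WT CD34-, 3 PML-RARa CD34+ and 2 PML-RARa CD34-.

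Promoters were located by matching RefSeq promoter sequences (GRCm38.p6) to the spacing of the listed cytosines. For 5 of the 10 sequences of these genes, at least 8 listed cytosines fell on their CpGs and 0 off them. Another 3 were placed on 5 to 7 cytosines, a minimum lowered after seeing the data, and 2 were not placed. The sequences below are the 250 bases before the start site, 5′ to 3′ in the direction of transcription, and show which CpGs lie behind the promoter values: capitals mark CpGs with at least 1 kept cytosine. Their mm9 positions are chr11:98798760-98799009 (plus strand) for Rara, chr14:17407991-17408240 (minus) for Rarb, chr15:102087954-102088203 (minus) for the upstream start of Rarg, chr2:27532471-27532720 (plus) for Rxra and chr9:58097594-58097843 (minus) for Pml, the last resting on 7 cytosines.
Rara: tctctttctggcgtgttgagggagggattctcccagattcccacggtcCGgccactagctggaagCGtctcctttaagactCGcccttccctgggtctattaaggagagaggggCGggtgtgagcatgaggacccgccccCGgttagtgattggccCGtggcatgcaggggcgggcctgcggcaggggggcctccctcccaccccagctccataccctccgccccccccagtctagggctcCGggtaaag
Rarb: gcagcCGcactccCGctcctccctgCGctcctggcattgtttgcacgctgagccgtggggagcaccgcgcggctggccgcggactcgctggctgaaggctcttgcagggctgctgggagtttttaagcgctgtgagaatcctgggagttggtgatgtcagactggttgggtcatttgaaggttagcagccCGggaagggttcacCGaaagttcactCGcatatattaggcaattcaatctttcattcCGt
Rarg: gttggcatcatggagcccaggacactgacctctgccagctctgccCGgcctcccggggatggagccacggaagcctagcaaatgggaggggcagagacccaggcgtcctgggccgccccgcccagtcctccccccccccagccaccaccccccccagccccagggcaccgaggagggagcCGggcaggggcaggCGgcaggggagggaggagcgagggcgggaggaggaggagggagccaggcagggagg
Rxra: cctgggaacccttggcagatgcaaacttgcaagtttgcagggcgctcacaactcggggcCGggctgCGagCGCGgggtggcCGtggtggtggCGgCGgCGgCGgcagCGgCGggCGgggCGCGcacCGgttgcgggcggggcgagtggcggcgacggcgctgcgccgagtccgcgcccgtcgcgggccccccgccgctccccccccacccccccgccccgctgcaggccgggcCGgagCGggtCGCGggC
Pml: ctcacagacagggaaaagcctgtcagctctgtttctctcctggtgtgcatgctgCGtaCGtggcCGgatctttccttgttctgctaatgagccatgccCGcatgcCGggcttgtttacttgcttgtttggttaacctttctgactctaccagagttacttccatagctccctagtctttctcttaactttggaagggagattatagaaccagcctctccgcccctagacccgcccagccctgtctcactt

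The promoters printed above were almost free of methylation in every group. Over the placed 300 bases, the Rara promoter averaged 0.273% ± 0.265 (SD, n = 5) in WT CD34+, 0.241% ± 0.144 in WT CD34-, 0.0732% ± 0.108 in PML-RARa CD34+ and 0.155% ± 0.0697 in PML-RARa CD34- libraries. It rested on 20 kept cytosines and 40440 reads over all libraries, of which 73 were methylated. The Rxra promoter, with 41 kept cytosines, had 51 methylated of 70217 reads, and no library exceeded a mean of 0.503%. At the Rarb promoter 54 of 35378 reads over 8 cytosines were methylated, at the upstream Rarg promoter 22 of 5961 over 3, and at the Pml promoter 60 of 10788 over 7. In these sums a read is counted at each cytosine it covers. Every group mean of these promoters was below 1%, so that a fall of 10 points was not possible there. Windows of 1 kb reach beyond the promoter sequence: the 2 Rara windows joining at the start averaged 8.23% ± 1.55, 7.08% ± 0.345, 8.41% ± 2.51 and 6.14% ± 2.57 upstream and 0.235% ± 0.166, 0.172% ± 0.0156, 0.0539% ± 0.0611 and 0.261% ± 0.157 downstream in WT CD34+, WT CD34-, PML-RARa CD34+ and PML-RARa CD34- cells.

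The Rarb promoter contains the direct repeat through which this gene responds to retinoic acid. The motif searched was spelled as in Rarb, so finding it there is no test. Variants of the repeat were not searched, and whether the other promoters hold response elements was not examined. The motif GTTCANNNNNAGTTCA, searched on both strands, was found in 11 of 32851 RefSeq promoter sequences of this length (0.0335%) and in Rarb alone among the placed promoters of the 5 genes. The site gttcacCGaaagttca lies at chr14:17408027-17408042, its 5′ end 52 bp before the start site, and its spacer carries the CpG printed in capitals. The cytosine read there, at position 17408036, was methylated in 1 of 5364 reads. It stood at 0 in 19 of 20 libraries and at 0.271% (1 of 369 reads, 95% Wilson interval 0.0479 to 1.52%) in PML-RARa CD34- library 14. Coverage was between 117 and 428 reads per library, and 0 of 117 reads allows a share of up to 2.56%, where the limit for a count of 0 is taken as 3 reads of the total (the Wilson upper bound is 3.18%). Intervals and limits of this kind cover counting error only, since the reads carry no molecular identifiers.

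Outside the promoters, methylation along the genes ran from near 0 to above 95%. Of the 68 windows 26 averaged below 10%, 21 between 10 and 80% and 21 above 80%, against 21.5%, 20.3% and 58.2% of all windows tested. Rara had a pair of unmethylated stretches of 3 tested windows each. One lay in the tested windows centred 0.49, 2.49 and 3.49 kb after its start, at 0.18 to 0.829%. It was not unbroken: the window between them, with 1 kept cytosine and not tested, averaged 27.4% with a range of 0 to 68.5%, and the 5 kept cytosines of a further Rara promoter sequence there, placed on 5 to 7 cytosines, averaged 5.96%, with up to 13.7% in 1 library. The other, 21.5 to 23.5 kb after the start, held 118 kept cytosines in 3 windows at 0.167 to 2.83%. Between them methylation was intermediate (10.4 to 56.8%), and from 32.5 kb onwards all 4 windows were above 92%. Single Rara windows near 0 lay 9.51 kb before the start (1.38%) and 25.5 kb after it (0.0566%, 4 kept cytosines). The latter lay beyond a window at 18.4%. At Rarg the windows around the downstream start, centred 7.45 to 13.5 kb after the upstream one, were all below 1%. That downstream start was placed on 7 listed cytosines, and its promoter sequence held 0 kept ones. The window just after the upstream Rarg start averaged 14.1%. Rxra was unmethylated at its start (0.361 and 1.20%) and had 12 of 22 windows above 80%. Pml had 3 windows below 3% near the start and 1 at 92.4% lying 29.1 kb downstream.

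**Figure D1:**
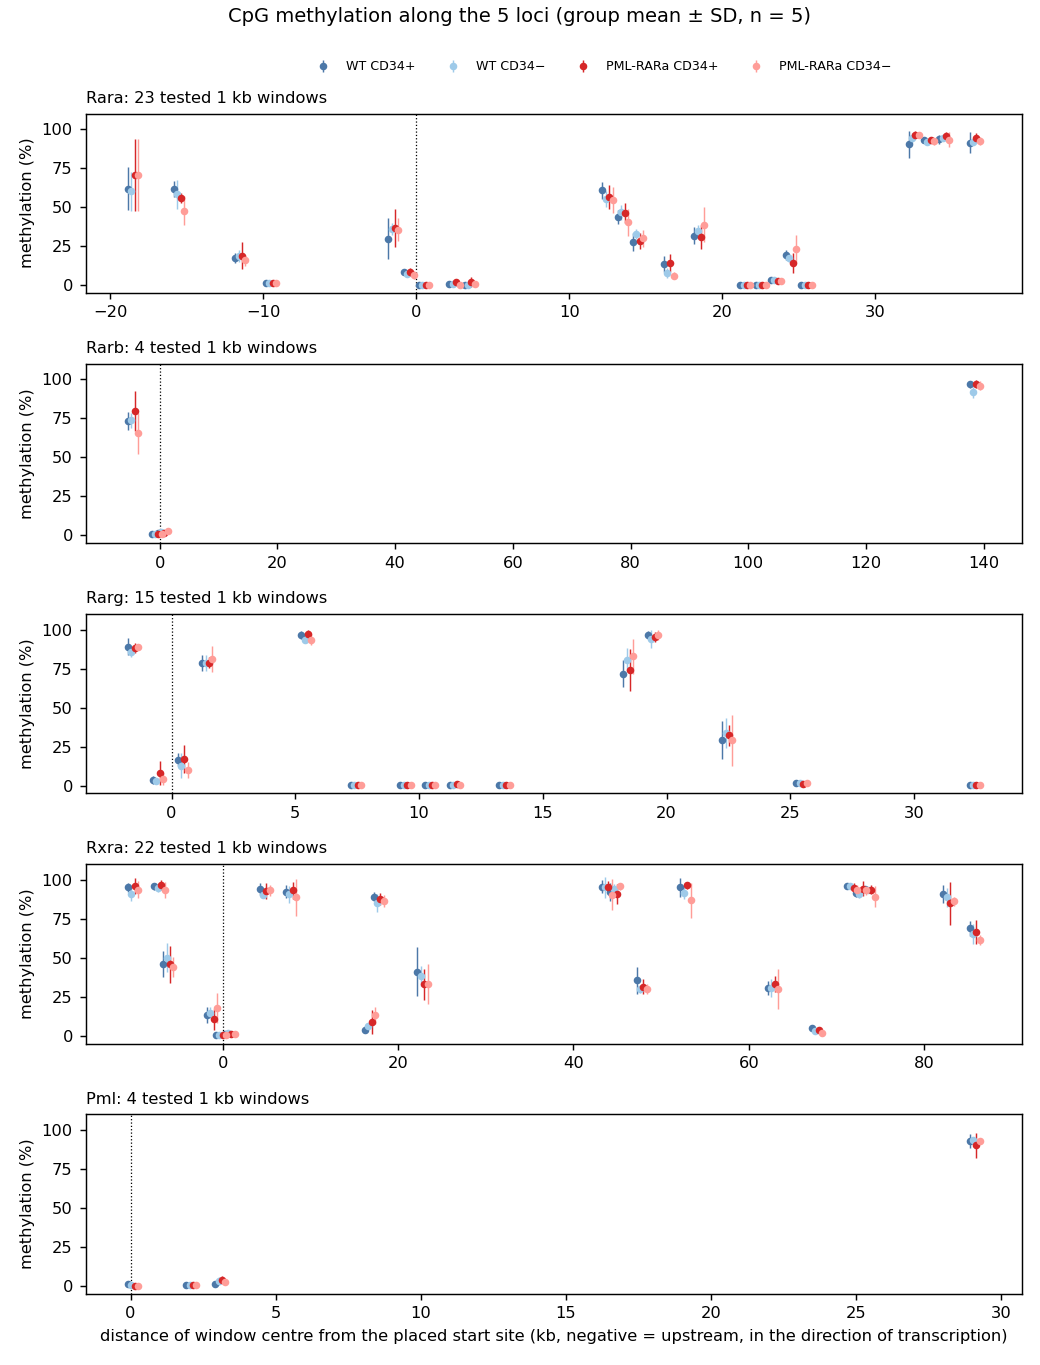
Methylation (%) of the tested 1 kb windows of Rara, Rarb, Rarg, Rxra and Pml against the distance of the window centre from the placed start site (kb, in the direction of transcription). Points are group means and bars SDs over 5 libraries, with the 4 groups drawn side by side; the groups lie close together at almost every window and the start sites lie in windows below 10%, or at 14.1% just after the upstream Rarg start.

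The mean over all cytosines of a locus listed in every library, each cytosine weighing equally, differed little between groups. For Rara (257 cytosines) it was 20.3% ± 0.925 in WT CD34+, 20.2% ± 0.221 in WT CD34-, 20.5% ± 0.743 in PML-RARa CD34+ and 20.3% ± 0.650 in PML-RARa CD34- cells. Rarb (43 cytosines) had the widest spread of group means, from 14.5% ± 0.952 in WT CD34- to 16.4% ± 1.90 in PML-RARa CD34+ cells. Rarg (148 cytosines) lay between 18.9 and 19.1%, Rxra (230) between 24.0 and 24.5% and Pml (28) between 26.8 and 27.3%. In each of the 4 comparisons the libraries of the groups overlapped at all 5 loci. The differences depended on the weighting. With all reads of a locus pooled, so that deeply covered cytosines weigh more, the maturation difference at Pml went from -0.358 to 5.20 points in WT and from 0.337 to 7.10 points in PML-RARa cells, and that at Rara in PML-RARa cells from -0.207 to -4.54 points. A pooled value also shifts with the share of reads falling on each cytosine, so it can change without a change of methylation at any of them. No spread is given for the pooled values. The equally weighted mean over all 1150978 cytosines listed in every library was 29.4 to 29.9%.

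No window of the 5 genes was called in any comparison, where a call needed an adjusted p under 0.05 (Benjamini-Hochberg, over all windows) together with group means 10 percentage points apart or more. The test was an F test of a quasi-binomial logistic model. For PML-RARa against WT in CD34+ cells 0 of 68 windows were called (background 0.00314% of all windows), and 4 (5.88%) had an unadjusted p under 0.05, against 4.19% of all windows. In CD34- cells 0 were called (background 0.000786%) and 6 (8.82%) had such a p, against 7.79%. For CD34- against CD34+ cells, 0 were called in WT (background 0.427%), with 4 (5.88%) under 0.05 unadjusted, against 6.21%. In PML-RARa 0 were called (background 0.0558%), with 10 (14.7%) under 0.05 unadjusted, against 9.42%. For the interaction of genotype and fraction 0 were called (background 0%), with 2 (2.94%) under 0.05, against 5.16%. By limma on the logit of window methylation 0 windows of the 5 genes were called as well, with 3, 1, 3, 5 and 2 of 68 under 0.05 unadjusted in the same order, against 4.58, 4.22, 4.11, 7.51 and 3.82% of all windows. The median of the absolute differences over the 68 windows was 0.908, 1.26, 1.19 and 1.54 points in the 4 comparisons of groups, beside 1.53, 1.45, 1.48 and 1.79 points over all windows. The 2 genotype comparisons share libraries with the 2 maturation comparisons and are not independent of them.

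**Figure D2:**
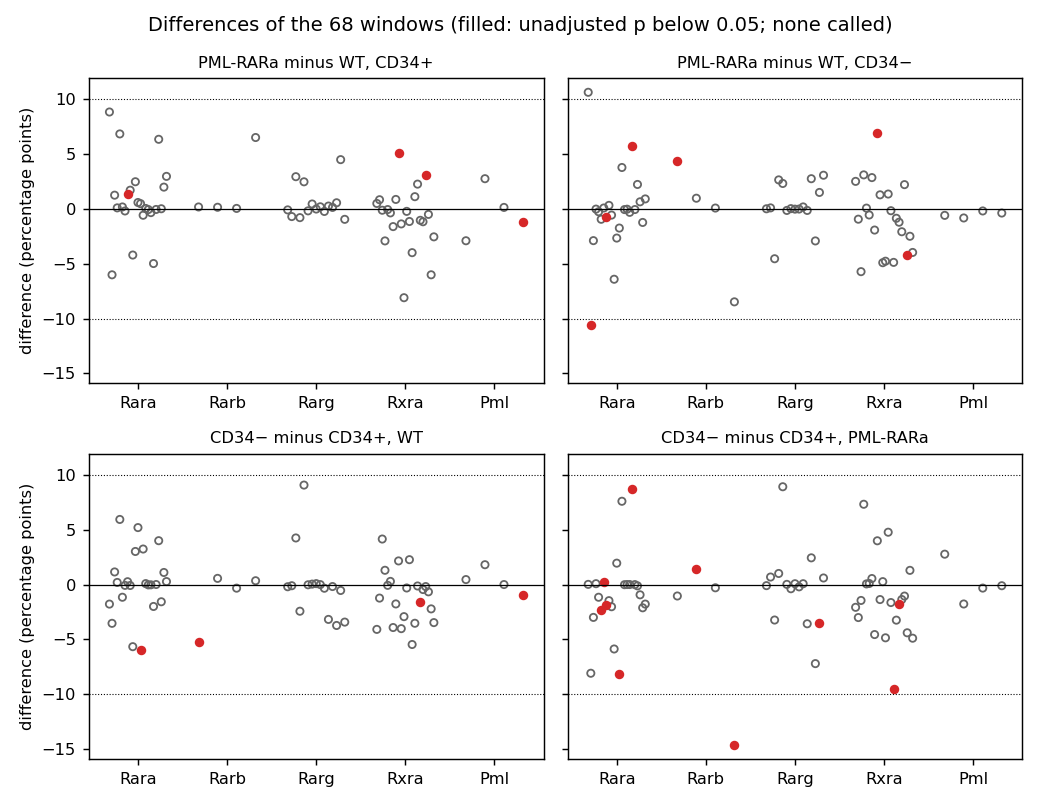
Difference in methylation (percentage points) of each of the 68 windows, grouped by gene and ordered by position within it, in the 4 comparisons of groups; filled points have an unadjusted p under 0.05 and dotted lines mark 10 points. None of the points was called, and most lie within a few points of 0.

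Among single cytosines, 0 of 984 were called between genotypes, in CD34+ cells (background 5.78e-05% of all cytosines) or in CD34- cells (background 5.78e-05%). By the same quasi-binomial test 50 (5.08%) and 78 (7.93%) had an unadjusted p under 0.05, against 5.34% and 8.44% of all cytosines. With maturation 1 of 984 cytosines was called in WT cells (background 0.0429%; called lower 0.0384%) and 1 in PML-RARa cells (background 0.00196%; called lower 0.00168%). Unadjusted p was under 0.05 for 63 (6.40%) and 86 (8.74%), against 5.83% and 8.53%. For the interaction 0 were called (background 0.00162%) and 49 (4.98%) had an unadjusted p under 0.05, against 5.53%.

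The called cytosine was the same one in both genotypes and lies at Rara. It is position chr11:98815407 on the plus strand, 16397 bp after the upstream start and before the second unmethylated stretch. In WT CD34+ libraries 1, 7, 9, 15 and 17 its methylation was 35.3, 19.7, 22.9, 18.1 and 13.6%. In the 5 WT CD34- libraries it was 0. The groups did not overlap, which was so for 4 of the 984 cytosines (0.407%) in this comparison. Methylation fell by 21.9 points (SE 3.66) from 21.9% ± 8.19 (SD, n = 5), with an adjusted p of 0.00205 by the quasi-binomial F test. Reads behind these values numbered 44 to 116 in CD34+ and 52 to 109 in CD34- libraries. The lowest CD34+ value, 6 of 44 reads, had a 95% Wilson interval of 6.40 to 26.7%, and 0 of 52 reads allows a share of up to 5.77% (3 reads of the total).

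In PML-RARa CD34+ libraries 3, 5, 11, 13 and 19 the same Rara cytosine was methylated at 17.1, 13.0, 5.00, 12.8 and 22%. In PML-RARa CD34- cells it was 0 in libraries 4, 6, 12 and 20 and 2.20% (2 of 91 reads) in library 14. These groups did not overlap either, which was so for 3 of the 984 cytosines (0.305%) in PML-RARa maturation. The share over all cytosines is not given here for either genotype. The fall was 13.6 points (SE 2.84), from 14.0% ± 6.27 to 0.440% ± 0.983, with an adjusted p of 0.0454 by the quasi-binomial F test. This second call was lost when any 1 of 15 of the 20 libraries was left out (adjusted p 0.0538 to 0.248 in those fits), when only the 2 PML-RARa groups were fitted (adjusted p 0.539), at a coverage minimum of 20 reads (adjusted p 0.0747) and on dropping the 5 high-scatter libraries (adjusted p 0.285). In all, 18 of 24 alternatives lost it. The WT call held without each of the 20 libraries in turn (adjusted p 0.00152 to 0.0124), and was lost only when the 2 WT groups were fitted alone (adjusted p 0.128). In the main fit the WT CD34- libraries, all at 0, added degrees of freedom but no spread to the overdispersion behind both calls.

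At this cytosine the groups did not overlap in either genotype, so any split of the libraries by flowcell must show a fall. The values within flowcells therefore describe its size and are no separate support. The fall was present within every flowcell that held both fractions. In WT cells it was 24.5 points in 1 flowcell (2 against 2 libraries), 20.5 points in another (2 against 2) and 19.7 points in the remaining one (1 against 1). In PML-RARa cells it was 11.7 points in the single flowcell with both fractions (2 against 3). The interaction at this cytosine was 8.37 points, with an unadjusted p of 0.149 and an adjusted p of 0.968 in the quasi-binomial test, and genotypes differed by 7.93 points in CD34+ cells (adjusted p 0.880).

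The 1 kb window around this cytosine, chr11:98815001-98816000 with 18 kept cytosines, was lower on average in CD34- cells of both genotypes without being called. It measured 17.6, 15.4, 17.9, 12.1 and 5.26% in WT CD34+ and 12.8, 8.81, 7.73, 4.77 and 4.33% in WT CD34- libraries. The group means were 13.7% ± 5.23 and 7.69% ± 3.44 (n = 5 each). The difference was -5.96 points (SE 2.80), with an adjusted p of 0.564 in the quasi-binomial test. PML-RARa cells averaged 14.1% ± 5.61 before and 5.95% ± 2.27 after maturation (-8.19 points, SE 2.71, adjusted p 0.379). Libraries of both fractions overlapped in each genotype. Between consecutive numbers, which may or may not share an animal, the CD34- library was the lower one in 10 of 10 cases. Of the 68 windows this was the only one with that count, and the Rarb window just after the start was higher in 10 of 10. How many of all windows had either count was not computed. The window around the called cytosine contains it and uses the same libraries, so its count is not independent of that call. The other cytosines of the window differed in level. The next one, position 98815441, averaged 8.78% ± 8.75 in WT CD34+ and 2.56% ± 2.45 in WT CD34- cells, and 6.22% ± 6.65 and 0.463% ± 0.645 in PML-RARa cells. Position 98815492 averaged 75.9% ± 14.1 and 73.0% ± 5.41 in WT and 70.5% ± 4.71 and 54.3% ± 10.7 in PML-RARa cells.

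**Figure D3:**
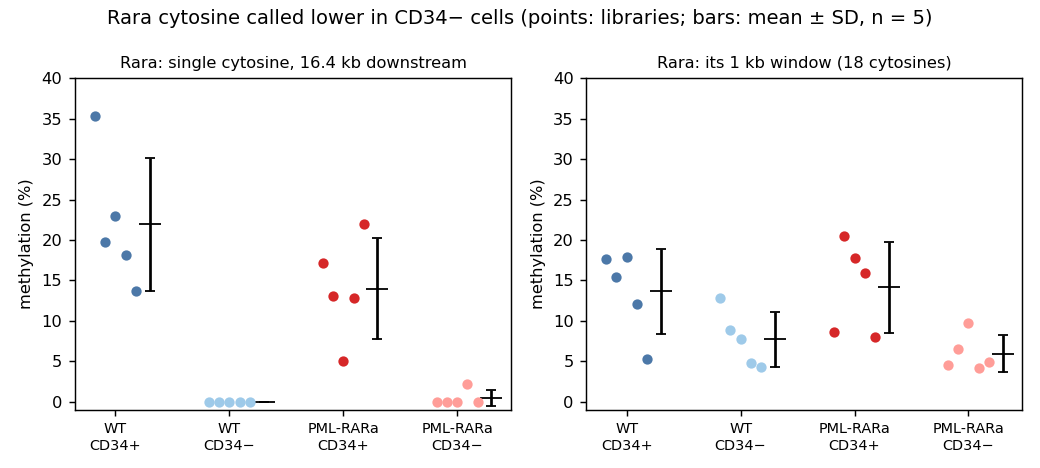
Methylation (%) per library of the called Rara cytosine (left) and of its 1 kb window (right) in the 4 groups; black marks are means and SDs of 5 libraries. At the cytosine the CD34+ libraries lie between 5.00 and 35.3% and the CD34- libraries between 0 and 2.20%, while in the window the fractions overlap.

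A Rara window of low methylation had a small p but stayed far from the 10 points of a call. The window chr11:98801001-98802000, which holds a further Rara start placed on 5 cytosines, had the smallest p of the 68 windows. It measured 1.86, 0, 0, 3.7 and 4.03% in PML-RARa CD34+ and 0, 0, 0.171, 0.134 and 0% in PML-RARa CD34- libraries. The groups overlapped, with 2 CD34+ libraries at 0. The difference was -1.86 points (SE 0.866), with an unadjusted p of 0.000202 and an adjusted p of 0.0973 by the quasi-binomial test, and was under the 10 points of a call. In WT cells the same window measured 0.534% ± 0.651 in CD34+ and 0.805% ± 1.01 in CD34- libraries. It also had the smallest p at Rara for PML-RARa against WT (a difference of 1.38 points in CD34+ and -0.744 in CD34- cells) and for the interaction (-2.13 points, unadjusted p 0.00330, adjusted p 0.964). The window with the widest range at Rara, 18.5 kb before the start, ran from 40.1 to 95.9% over the 20 libraries, with group means of 60.0 to 70.6% and SDs of 12.2 to 23.1 points. Of single Rara cytosines, position 98801048 was at 9.14% in PML-RARa CD34+ library 13 and at 0 in the other 9 PML-RARa libraries (adjusted p 0.205), and position 98822226 averaged 0.461% ± 0.658 in WT CD34+ cells and 0 in PML-RARa CD34+ cells (adjusted p 0.751). Position 98829441 averaged 100% and 93.6% ± 7.44 in WT and 90.9% ± 9.38 and 99.1% ± 1.97 in PML-RARa cells, an interaction of 14.6 points (adjusted p 0.769 by the quasi-binomial test).

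At Rxra, the shared heterodimer partner, a low window far downstream had the smallest p for maturation in both genotypes. The window chr2:27600001-27601000 (12 cytosines, centred 67.8 kb after the start) measured 2.38, 5.39, 6.71, 3.94 and 5.09% in WT CD34+ and 6.02, 3.18, 2.79, 1.47 and 2.02% in WT CD34- libraries. Here 4 of 5 CD34- libraries were at or below 3.18% and library 2 was at 6.02%, so that the groups overlapped. The difference was -1.60 points in WT (SE 1.07, unadjusted p 0.00191, adjusted p 0.206) and -1.78 points in PML-RARa cells (SE 0.896, unadjusted p 0.00395, adjusted p 0.285), neither called by the quasi-binomial test. PML-RARa CD34+ libraries measured 4.16, 4.82, 0.683, 3.79 and 4.89% and PML-RARa CD34- libraries 2.17, 2.67, 0.198, 2.60 and 1.82%.

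In 1 Rxra window the genotypes did not overlap in CD34- cells, a count near the share over all windows, and it was not called. At chr2:27549001-27550000 (4 cytosines, 16.8 kb after the start) WT CD34- libraries measured 6.21, 6.05, 5.77, 4.64 and 7.69% and PML-RARa CD34- libraries 10.3, 19.0, 18.6, 9.15 and 7.92%. Every PML-RARa library was above every WT library. This was the only one of the 68 windows whose groups did not overlap in that comparison (1.47%, against 0.933% of all windows). No member window had groups that did not overlap in CD34+ cells between genotypes (background 0.785%), or between fractions in WT (background 2.1%) or PML-RARa cells (background 1.09%). The difference was 6.92 points (SE 2.44), with an unadjusted p of 0.0127 and an adjusted p of 0.541 in the quasi-binomial test. In CD34+ cells the means were 3.90% ± 2.18 in WT and 8.99% ± 7.81 in PML-RARa (unadjusted p 0.0407, adjusted p 1), with overlap. The PML-RARa libraries furthest up, CD34+ 5 and CD34- 6 and 12, are among the 5 of high scatter. The promoter window of Rxra, with 97 cytosines, was between 0.324% and 0.402% in the 4 group means. The window chr2:27605001-27606000 had the smallest p at Rxra between genotypes in CD34+ cells, with 91.3% ± 2.60 in WT and 94.4% ± 4.94 in PML-RARa libraries (unadjusted p 0.0193, adjusted p 1). Its interaction was -0.869 points (adjusted p 0.977). The widest range at Rxra, 12.8 to 68.6%, was in chr2:27555001-27556000, where WT CD34+ library 1 was highest.

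Single Rxra cytosines with the smallest p between genotypes were not called. At position 27532027, inside the promoter window, WT CD34+ libraries averaged 1.72% ± 1.96 and both PML-RARa CD34+ and WT CD34- libraries were at 0 (adjusted p 0.633 and 0.143). Position 27580785 averaged 23.02% ± 5.56 in WT CD34- and 6.87% ± 6.69 in PML-RARa CD34- cells, a difference of -16.1 points (SE 3.89, adjusted p 0.303 by the quasi-binomial test) with overlapping libraries. Position 27600270 averaged 2.15% ± 1.5 in WT CD34- cells and 0 in PML-RARa CD34- cells (adjusted p 0.309). Position 27613945 averaged 0.202% ± 0.452 in WT CD34+ and 10.6% ± 12.4 in PML-RARa CD34+ cells (adjusted p 0.661). Its SD in PML-RARa cells exceeded its mean. The interaction with the smallest p was at position 27596252, with 17.9% ± 6.36 and 3.15% ± 2.01 in WT CD34+ and CD34- cells and 7.08% ± 4.64 and 14.9% ± 14.5 in PML-RARa cells (22.5 points, adjusted p 0.733). At position 27600270 the interaction was -2.30 points (adjusted p 0.767).

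At Rarb the distal window chr14:17269001-17270000 (8 cytosines, 138 kb after the start) was highly methylated, with its lowest mean in WT CD34- cells. WT CD34- libraries measured 88.4, 94.4, 92.7, 87.8 and 95.1%, beside 100, 94.1, 96.6, 97.4 and 96.3% in WT CD34+ and 98.9, 96.8, 93.0, 93.4 and 98.1% in PML-RARa CD34- libraries. WT CD34- cells were 5.21 points below WT CD34+ cells (SE 1.79, adjusted p 0.423), and PML-RARa CD34- cells were 4.37 points above WT CD34- cells (SE 1.94, adjusted p 0.532), neither called by the quasi-binomial test. The other Rarb window outside the promoter, chr14:17412001-17413000, had the largest difference of any of the 68 windows. It averaged 79.97% ± 12.8 in PML-RARa CD34+ and 65.3% ± 13.1 in PML-RARa CD34- cells, a difference of -14.6 points (SE 8.18, unadjusted p 0.0306, adjusted p 0.477). The values behind it were 91.0, 95.9, 65.9, 73.6 and 73.5% against 68.7, 45.0, 60.8, 77.5 and 74.8%, and they overlapped. Just after the Rarb start, chr14:17407001-17408000 averaged 1.53% ± 1.06 and 2.93% ± 0.423 in the same comparison (unadjusted p 0.0117, adjusted p 0.379). The window before the start averaged 0.608 to 0.977% in the 4 groups. In CD34+ cells the smallest p between genotypes was again at chr14:17412001-17413000 (6.52 points, adjusted p 1), and its interaction had an adjusted p of 0.973. Position 17269337 averaged 93.0% ± 4.24 in WT CD34- and 99.8% ± 0.502 in PML-RARa CD34- cells (adjusted p 0.314).

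At Rarg no window had an unadjusted p under 0.05 between genotypes. Its window with the smallest p in CD34+ cells, chr15:102074001-102075000, averaged 0.210% ± 0.234 in WT and 0.0387% ± 0.0865 in PML-RARa libraries (adjusted p 1). In CD34- cells it was chr15:102089001-102090000, at 85.6% ± 2.88 and 88.6% ± 0.744 (adjusted p 0.789). With maturation, the window just before the upstream start, chr15:102088001-102089000, averaged 7.91% ± 7.83 in PML-RARa CD34+ and 4.39% ± 3.96 in PML-RARa CD34- cells (difference -3.52 points, SE 3.92, adjusted p 0.521). PML-RARa CD34+ library 11, at 20.0%, was the highest there, and without it the difference was -0.498 points. The interaction of this window was -2.99 points (adjusted p 0.979). In WT cells the smallest p was in the window 32.5 kb after the upstream start, with 0.210% ± 0.247 and 0.0221% ± 0.0494 (adjusted p 0.833). The window after the upstream start averaged 16.6% ± 4.16, 12.8% ± 7.84, 17.1% ± 9.15 and 9.92% ± 5.12 in WT CD34+, WT CD34-, PML-RARa CD34+ and PML-RARa CD34- cells, with WT CD34- library 2 at 26.8% and the other 4 of its group at 8.12 to 10.2%. The widest range, 14.5 to 54.0%, was in chr15:102065001-102066000. Position 102087578 averaged 3.79% ± 5.16 in 4 PML-RARa CD34+ libraries and 0 in PML-RARa CD34- cells (adjusted p 0.132).

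Pml, the partner of Rara in the fusion, had its smallest p in each comparison in windows below 5%. Its promoter window, chr9:58097001-58098000 with 9 cytosines, measured 0.287, 1.21, 4.40, 0.441 and 0.176% in WT CD34+ and 0.119, 0, 0, 0.396 and 0.119% in PML-RARa CD34+ libraries. The difference was -1.18 points (SE 0.798, unadjusted p 0.00707, adjusted p 1 by the quasi-binomial test). WT CD34+ library 9 carried the highest value, and without it the difference was -0.401 points. WT CD34- libraries averaged 0.403% ± 0.374 and PML-RARa CD34- libraries 0.0320% ± 0.0716, the latter with 4 of 5 libraries at 0. Position 58097788 in this window was at 1.87% and 8.19% in WT CD34+ libraries 7 and 9 and at 0 in every other library (WT maturation, adjusted p 0.332). In PML-RARa cells the smallest p for maturation was at chr9:58095001-58096000, with 0.713% ± 0.95 and 0.403% ± 0.401 (adjusted p 0.578). Inside the gene, chr9:58094001-58095000 averaged 1.33% ± 1.60 in WT CD34+, 3.15% ± 2.37 in WT CD34-, 4.10% ± 2.31 in PML-RARa CD34+ and 2.33% ± 1.75 in PML-RARa CD34- cells, with an interaction of -3.58 points (adjusted p 0.973). The methylated window chr9:58068001-58069000 had the widest range of the gene, 75.6 to 96.2%, and group means of 90.1 to 93.5%.

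Coverage, which the methylation percentages do not show, separated all libraries of the genotypes in a single window of the 5 genes, at Rara. At chr11:98831001-98832000, centred 32.5 kb after the start, each library's share of the reads over all kept cytosines was computed. It was 0.739 to 2.51 per 1000000 (median 1.35) in the 10 WT libraries and 2.77 to 6.11 per 1000000 (median 4.46) in the 10 PML-RARa libraries. Every PML-RARa library was above every WT library, and the ratio of the means was 3.06. No other of the 127276 windows had such a separation in this direction (0.000786%), and 0 had it in the opposite one (0%). The ratio was between 0.716 and 1.30 in the central 95% of all windows, and 1.33 in the Rara window chr11:98833001-98834000, the only other one of the 68 outside that range. It was 3.13, 2.88 and 4.37 within the 3 flowcells that held both genotypes, where an excess follows from the separation of all libraries. The window was noticed in these data and was not chosen by a rule, so no test is given.

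The excess at this Rara window covered all 5 of its kept cytosines, with ratios of 4.30 and 4.27 at the 2 on the minus strand and 2.04 to 2.06 at the 3 on the plus strand. A cytosine under 10 reads is not listed and counts as 0 reads here. Nearby, positions 98829407 and 98829441 had ratios of 1.72 and 2.15, and positions 98832968, 98832985, 98833006 and 98833024 had 1.61. Between and beside them, positions 98832913, 98832915, 98832922 and 98832969 had ratios of 0.678 to 0.690, lower in PML-RARa libraries, so that the ratio crossed 1 over short distances. The Rara interval as a whole had a ratio of 1.07 and the Pml interval 0.993, and 0 of the 4 Pml windows separated the genotypes. No cytosine was listed in 8 or more PML-RARa libraries and in no WT library. Methylation of the window was 90.2% ± 8.63, 94.2% ± 3.05, 96.5% ± 2.56 and 96.4% ± 1.85 in WT CD34+, WT CD34-, PML-RARa CD34+ and PML-RARa CD34- cells, and it was not called. Whether reads of the transgene aligned to this window was not tested, and its methylation value cannot be assigned to the Rara gene alone in PML-RARa libraries.

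**Figure D4:**
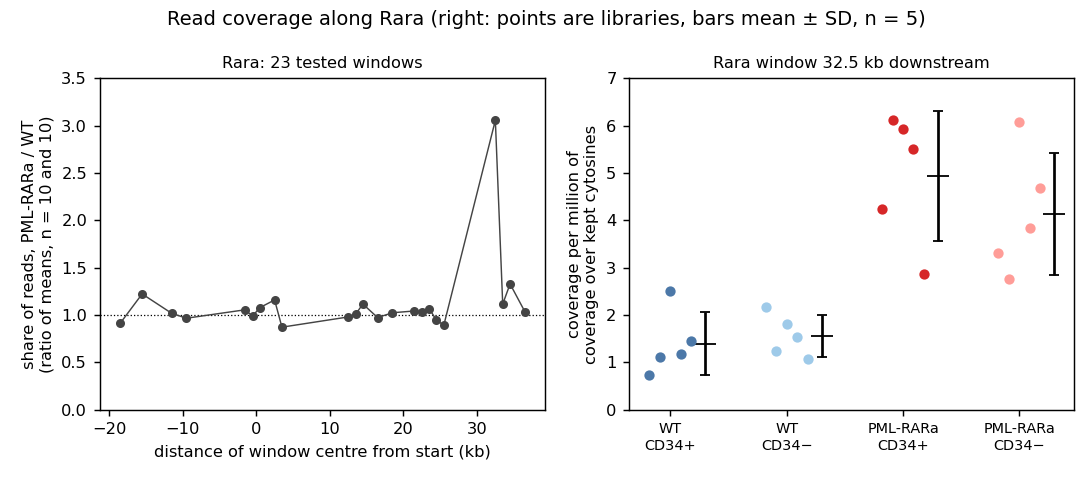
Left: ratio of the mean share of reads in 10 PML-RARa libraries to that in 10 WT libraries for the 23 tested Rara windows, against distance from the start (kb). Right: share per 1000000 reads in each library for the window 32.5 kb downstream, with means and SDs of 5 libraries; the PML-RARa libraries (2.77 to 6.11) all lie above the WT libraries (0.739 to 2.51).

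Other genes of retinoid handling and of PML bodies were compared in the same way at their promoters. Of 28 such genes 17 had a promoter sequence and 9 could be placed: the receptor Rxrb, the retinol carrier Rbp4, its receptor Stra6, the retinoic acid synthase Aldh1a2, the retinal reductase Dhrs3, the corepressor Ncor1, the coactivator Ncoa1, the corepressor Nrip1 and the PML-body protein Daxx. Their 12 promoter windows gave 0 calls by the quasi-binomial test in each of the 5 comparisons, with 0, 1, 0, 0 and 0 under 0.05 unadjusted. Over all windows 0.00314, 0.000786, 0.427, 0.0558 and 0% were called, in the same order. Unadjusted p was under 0.05 in 4.19, 7.79, 6.21, 9.42 and 5.16% of them. With such shares, 0 calls among 12 windows says little about these genes. Of the 12 windows 10 averaged below 10%, where a fall of 10 points is not possible. Stra6 held the other 2, at 54.0% and 40.8%. In its window chr9:57976001-57977000 WT CD34- libraries averaged 59.4% ± 7.13 and PML-RARa CD34- libraries 48.0% ± 12.7, a difference of -11.4 points (unadjusted p 0.0285, adjusted p 0.604).

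For 2 windows of the 5 genes the most similar windows elsewhere were sought, by Pearson correlation of methylation over the 20 libraries among 79645 windows with a range of at least 10 points. The Rara window chr11:98801001-98802000 was nearest to chr17:87931001-87932000 (r = 0.815), chr5:66303001-66304000 (r = 0.709) and chr11:109187001-109188000 (r = 0.70). The Pml promoter window was nearest to chr12:12527001-12528000 (r = 0.963), chr7:6108001-6109000 (r = 0.929) and chr16:49770001-49771000 (r = 0.915). It was at 4.40% in WT CD34+ library 9 and at 1.21% or below in every other library. Its coefficients may therefore rest on library 9, and they were not computed without it. These coefficients are descriptions of the highest of many. The 20 libraries share groups and flowcells.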

How the data were processed

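CpG methylation was measured by enhanced reduced representation bisulfite sequencing in 20 libraries, 5 of each of 4 groups. The submitters' processing notes name CASAVA 1.8.2, Bismark and the mm9 build, with no role or order; other versions and filters are not given in the sources used here. The authors' deposited files give, per the file headers, a coverage count for each CpG cytosine and the percentage of reads with C (methylated) and with T. No listed cytosine had a coverage under 10. Methylated and unmethylated reads were recovered as coverage times percentage, and 100% came out whole within 0.005% of the coverage; 0.0176 to 0.0630% of reads held another base. Median coverage was 32 to 150 reads per listed cytosine, and 1718859 to 2213704 cytosines were listed per library. All columns used were mapped to samples.

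The members, lists and tests were chosen with earlier results of these data known. Cytosines of chromosomes 1 to 19 with coverage of 10 or more in 4 of 5 libraries of each group were kept, and fixed 1 kb windows needed 3 of them. A window's methylation is its methylated reads over all its reads; group means are unweighted. For each window and cytosine, a logistic model with quasi-binomial errors was fitted to all 4 groups (16 residual degrees of freedom), with the overdispersion moderated over all features as in limma's squeezeVar and kept at 1 or above. A group whose libraries are all unmethylated or all methylated adds no spread. It still counts in these degrees of freedom, which can lower the overdispersion. Two-sided F tests were adjusted by the Benjamini-Hochberg method over all features of a comparison. The standard error of a difference comes from the group SDs and is separate from the F test. The interaction is the maturation difference in PML-RARa minus that in WT. The code was tested on simulated data. Sequences are RefSeq's (GRCm38.p6) and positions are mm9, found by CpG spacing and not by conversion.

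For each gene the text names the windows of the placed promoter, those with the smallest p per comparison and the one with the widest range, and any called window or cytosine; over the 5 genes together it also names the 3 cytosines with the smallest p per comparison. Further features named were chosen after their values were seen. Alternatives were a coverage minimum of 20, cytosines listed in all libraries, only the compared groups, limma, flowcell or the # mark of some titles as a factor, a replicate block, windows of 500 bp or with at least 1 cytosine, pooled reads for locus means, and leaving out each library or the 5 of high scatter (the last named by earlier results of these data). Python 3.11.15, numpy 2.4.6, scipy 1.17.1, numba 0.67.0, R 4.3.3 and limma 3.58.1 were used.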

Additional observations from a re-analysis of the deposited data

Results flagged for a closer look

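In 19 of 131 groups of 5 libraries examined, 1 library lay far from the other 4 by Dixon's criterion, 14 of them high and 5 low. The criterion's rate of about 1 in 20 is for independent normal values and cannot be set against this count. Many windows were chosen by p or range, and where 4 libraries stand at 0 any other value is flagged. At Rara, the locus mean of PML-RARa CD34+ library 11 was 21.8%, with the others at 20.1 to 20.4%. At the called Rara cytosine PML-RARa CD34- library 14 was at 2.2% and the others at 0.

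At Pml, the locus mean was 25.5% in WT CD34+ library 1 (others 27.5% or more) and 28.6% in WT CD34- library 2 (others 26.9% or less). The distal methylated Pml window was at 85.5% in WT CD34+ library 1 and at 75.6% in PML-RARa CD34+ library 11. The window chr9:58094001-58095000 was at 8.18% in PML-RARa CD34+ library 13. The Pml promoter window was at 4.4% in WT CD34+ library 9 and at 0.16% in PML-RARa CD34- library 4.

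At Rarb, the window before the start was at 1.58% in WT CD34- library 16, above 0.325 to 0.431% in the others. At Rarg, the window after the upstream start was at 26.8% in WT CD34- library 2, and the one 1.55 kb before that start was at 98.3% in WT CD34+ library 1 and 89.9% in PML-RARa CD34- library 12. Near 0, WT CD34- library 2 was at 0.11% in the Rarg window 32.5 kb after the start and PML-RARa CD34+ library 3 at 0.193% in chr15:102074001-102075000, with the others at 0.

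At Rxra, the promoter window was at 0.882% in PML-RARa CD34- library 12 and chr2:27555001-27556000 at 68.6% in WT CD34+ library 1. In PML-RARa CD34+ library 11 chr2:27600001-27601000 was at 0.683% and chr2:27605001-27606000 at 85.7%. Of the libraries named, WT CD34+ 1, PML-RARa CD34+ 11 and PML-RARa CD34- 12 are among the 5 of high scatter; whether scatter bears on these values was not tested.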

How the results depend on the processing

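No window of the 5 genes was called under any alternative run. Single called cytosines in PML-RARa maturation numbered 0 in place of 1 with a coverage minimum of 20 reads, with only the compared groups fitted and without the 5 libraries of high scatter, and 0 to 1 on leaving out each library; in WT maturation the number was 0 with only the compared groups fitted. The block was tried on consecutive title numbers. Consecutive titles share genotype and # mark, but pairing was not established: correlations of deviations within pairs were -0.0589 to 0.241, above 0.1 in 3 of 10 pairs, and highest with the own partner in 6 of 10, a hint from the data and not the design. With this replicate block 0 windows of the 5 genes were called for maturation in WT or PML-RARa cells (5 and 10 at an unadjusted p under 0.05), and over all windows 449 and 61; the window around the called Rara cytosine, chr11:98815001-98816000, had an adjusted p of 0.0901 in WT cells with the block and 0.564 without it. By limma 0, 0, 136, 25 and 0 of all windows were called in the 5 comparisons, and with flowcell as a factor 0, 0, 454, 0 and 0, beside 4, 1, 543, 71 and 0. Over all windows, the 71 of PML-RARa maturation became 8 with only the compared groups fitted, 3 without the libraries of high scatter, 45 at a coverage minimum of 20, 108 with at least 1 cytosine per window, 139 in windows of 500 bp and 15 to 93 on leaving out each library; the 543 of WT maturation became 357 at that minimum and 306 to 603 on leaving out each library. Over all cytosines, the 34 and 742 of PML-RARa and WT maturation became 0 and 2 with only the compared groups fitted, 0 and 475 without the libraries of high scatter, and 6 and 444 at a coverage minimum of 20.

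Locus means weigh cytosines equally. With all reads of a locus pooled, maturation differences in WT and PML-RARa cells were -1.51 and -4.54 points for Rara, 5.20 and 7.10 for Pml, -1.64 and -1.77 for Rarg and -0.876 and -3.83 for Rxra, and 0.640 for Rarb in PML-RARa cells. Pooled genotype differences in CD34+ and CD34- cells were 2.49 and -0.530 for Rara, 3.35 and 5.25 for Pml and -1.70 and -1.83 for Rarg, -1.86 for Rarb in CD34+ and -3.18 for Rxra in CD34- cells. At a coverage minimum of 20 the Pml difference for WT maturation was 0.724. The cause was not tested.

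Small differences reversed. The Rara cytosine's genotype difference in CD34- cells was 0 to 0.549 on leaving out each library, with 0 without PML-RARa CD34- library 14. Maturation at Pml chr9:58095001-58096000 in PML-RARa cells ranged from -0.489 to 0.0684. The interaction at Rarg chr15:102088001-102089000 ranged from -4.89 to 0.0303, and was 0.232 at a coverage minimum of 20 and 0.115 without the libraries of high scatter. That at Rxra chr2:27605001-27606000 ranged from -3.03 to 0.413. Of 817 values of single windows and cytosines under alternatives, 789 kept their direction and side of the threshold. Another 9 reversed or reached 0 as above, and the 19 that lost a call were all at the Rara cytosine. Reads at that cytosine were 23 to 119 per library, which limits its precision.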
